A study of Mus musculus with 48 samples.

Results

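The apelin and adrenomedullin peptides and their receptors were followed as 9 genes, Apln, Apela, Aplnr, Adm, Adm2, Calcrl, Ramp1, Ramp2 and Ramp3, among the 54752 genes of the deposited matrix. The genes were chosen by name as peptides and receptors of these systems, with TPM values of these libraries already known, so their levels are a description and the tests below are no independent evidence for the choice. Apelin (Apln) and apela (Apela) are secreted peptides that both act on Aplnr, a G-protein-coupled receptor that is abundant in endothelium and is known for its part in vessel growth and in the force of the heartbeat. Adrenomedullin (Adm) and the related peptide Adm2 act on the receptor Calcrl, which reaches the cell surface only together with a receptor activity-modifying protein. Calcrl with the protein from Ramp1 prefers calcitonin gene-related peptide, and Calcrl with the protein from Ramp2 or Ramp3 prefers adrenomedullin. Loss of Adm, Calcrl or Ramp2 in mice is known to disturb lymphatic vessels and to cause edema.

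The libraries came from male C57BL/6 mice in which an IRES-eGFP cassette had been knocked into the endogenous Prox1 locus, so that lymphatic cells carry eGFP, and every group shared this allele. Ctrl mice received bovine serum albumin in saline by osmotic minipump, angII mice received angiotensin II with bovine serum albumin, and angII+VEGFC mice received angiotensin II with VEGFCc156s, a VEGFC variant that activates the lymphatic receptor Flt4 and not Kdr, for 5 to 6 weeks. The mice were 8 to 16 months old by the labels. From 13 mice, RNA-seq was done on 4 populations of 12 libraries each, 4 ctrl, 5 angII and 3 angII+VEGFC. Heart lymphatic endothelial cells (heart LEC), diaphragm lymphatic endothelial cells (diaphragm LEC) and heart blood endothelial cells (heart BEC) were sorted as live CD31+ CD45- cells and divided by eGFP, whereas cardiomyocytes were spun down slowly out of the digest of the heart and were not sorted. The heart populations of a mouse share an animal number, and 11 of the 12 diaphragm LEC libraries came from a mouse that also gave heart libraries. Endothelial libraries were sequenced in batches 1 and 2 and cardiomyocytes in batch 3, so comparisons between endothelium and cardiomyocytes cannot be told apart from batch.

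Values are TPM, a gene's share of all transcripts after correction for their length, on a fixed total that is the same for every library, so they keep no read depth and the depth is unknown. Each library listed between 12924 and 25896 genes at 1 TPM or more. The summed TPM of 6 lymphatic markers, Prox1, Lyve1, Flt4, Pdpn, Reln and Mmrn1, was 2932 to 5426 in heart LEC and 6980 to 11063 in diaphragm LEC against 91.6 to 153 in heart BEC and 38.0 to 59.8 in cardiomyocytes, so the lymphatic markers were where the labels place them. Some libraries stood apart. In heart LEC, the angII libraries of mice 14 and 15 had a summed TPM of 6 blood endothelial markers, Nos3, Flt1, Cd36, Fabp4, Gpihbp1 and Aqp1, at 47.8% and 35.9% of that in the BEC of the same mouse, and results of the angII group are given with and without them. In diaphragm LEC, the gap between the ctrl library of mouse 9 and the nearest other ctrl library was 0.830 to 0.943 of the whole range of the group for 4 of the 9 genes, Apln, Aplnr, Ramp1 and Ramp3, and pericyte and smooth muscle markers summed to 472 TPM in it against 43.0 to 105 TPM in the other 11 libraries.

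The 9 genes lie on separate chromosomes apart from Aplnr with Calcrl on chromosome 2 and Ramp2 with Ramp3 on chromosome 11. On GRCm38, in the GENCODE annotation, Apln (ENSMUSG00000037010) is at chrX:48025146-48034853 and Aplnr (ENSMUSG00000044338) at chr2:85136225-85139923. Apela (ENSMUSG00000079042) is at chr8:65028417-65037336 and shares exon sequence with a neighboring same-strand gene, Gm45886, so its values are uncertain. Adm (ENSMUSG00000030790) is at chr7:110627661-110629820 and Adm2 (ENSMUSG00000054136) at chr15:89322720-89324731. Calcrl (ENSMUSG00000059588) is at chr2:84330626-84425411 and Ramp1 (ENSMUSG00000034353) at chr1:91179822-91225196. Ramp2 (ENSMUSG00000001240) is at chr11:101246028-101259546 and overlaps exons of Vps25 on the same strand. Ramp3 (ENSMUSG00000041046) is at chr11:6658521-6677475 and overlaps the pseudogene Gm11978 on the other strand, and whether strand was used in the quantification is not given in the sources used here.

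Adm is a textbook hypoxia-induced gene, and Adm, Apln and Ramp3 are the members described most closely below, so the 250 bases before their RefSeq start (GRCm38.p6) are shown, 5′ to 3′ on the strand of the gene. Apln lies at chrX:48034854-48035103 on the minus strand, Adm at chr7:110627407-110627656 on the plus strand and Ramp3 at chr11:6658283-6658532 on the plus strand. Capitals mark GCGTG or its complement CACGC, a core of the sequence that hypoxia-inducible factors bind.

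Apln: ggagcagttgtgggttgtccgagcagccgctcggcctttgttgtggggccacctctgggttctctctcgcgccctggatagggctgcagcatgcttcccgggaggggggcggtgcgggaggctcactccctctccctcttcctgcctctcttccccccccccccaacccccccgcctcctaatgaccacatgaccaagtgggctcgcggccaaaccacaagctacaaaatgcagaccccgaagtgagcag

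Adm: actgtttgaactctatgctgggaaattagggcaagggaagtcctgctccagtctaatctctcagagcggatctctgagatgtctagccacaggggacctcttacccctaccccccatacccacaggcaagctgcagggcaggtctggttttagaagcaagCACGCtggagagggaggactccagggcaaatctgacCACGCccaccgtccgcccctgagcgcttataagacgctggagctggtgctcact

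Ramp3: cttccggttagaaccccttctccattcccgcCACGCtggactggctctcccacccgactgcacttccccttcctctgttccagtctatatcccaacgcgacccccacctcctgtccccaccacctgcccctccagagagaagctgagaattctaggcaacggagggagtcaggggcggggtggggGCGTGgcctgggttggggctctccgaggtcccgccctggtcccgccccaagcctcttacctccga

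Adm held 2 matches, starting 90 and 54 bases before the start, and Ramp3 held 2, at 219 and 65 bases before it. Of the 7 members with a RefSeq promoter, Apln, Apela, Adm2, Calcrl and Ramp1 held 0 matches. The letters GCGTG on either strand occurred in 28.2% of 32851 promoters of the same length. The motifs ACGTG, the form of the hypoxia core most often searched, and TGACG, the core of the cyclic AMP response element, occurred in 16.6% and 17.8% of promoters and in 0 of the 7 members on either strand. These matches describe letters and no site.

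Of the apelin peptides, Apln was at 38.3 ± 11.8 TPM in heart BEC (SD, n = 12 in each population), 8.76 ± 4.06 TPM in cardiomyocytes, 5.29 ± 6.06 TPM in heart LEC and 0.824 ± 1.35 TPM in diaphragm LEC. The ranges of heart BEC and cardiomyocytes did not overlap, with means 4.37-fold apart, whereas the lower neighbors in this order overlapped. Apela was low in every population, at 1.84 ± 1.88 TPM in heart LEC and 0.204 to 0.830 TPM on average in the others, and no neighbors in its order were separated. In bulk libraries such as these, fewer cells of a type and less RNA per cell cannot be told apart.

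The apelin receptor Aplnr followed the same order as Apln. Its level was 305 ± 90.5 TPM in heart BEC, 53.2 ± 19.2 TPM in cardiomyocytes, 30.7 ± 35.2 TPM in heart LEC and 4.21 ± 7.01 TPM in diaphragm LEC. Only the step from heart BEC to cardiomyocytes, 5.72-fold, lay outside the ranges of both populations. Within mice, Aplnr was higher in heart LEC than in diaphragm LEC in 11 of 11 mice, by 2.39 ± 1.72 (SD) on the log2(TPM + 1) scale, and lower in heart LEC than in heart BEC in 12 of 12, by a mean difference of -4.02 ± 1.54. In ctrl libraries alone, heart LEC had 12.9 ± 12.4 TPM of Aplnr and 2.55 ± 2.52 TPM of Apln (n = 4), and the difference of Aplnr between heart and diaphragm LEC was 1.20 ± 1.12 in the 4 ctrl mice.

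Adm showed another order, being highest in lymphatic cells of the heart. Adm was at 197 ± 60.8 TPM in heart LEC, 120.2 ± 40.0 TPM in diaphragm LEC, 104 ± 19.7 TPM in heart BEC and 36.7 ± 6.48 TPM in cardiomyocytes, and only the last step, 2.83-fold, separated neighbors. In libraries of 1 mouse, Adm was higher in heart LEC than in heart BEC in 11 of 12 mice, by 0.88 ± 0.60 in log2(TPM + 1), and higher in heart LEC than in diaphragm LEC in 10 of 11, by 0.63 ± 0.40. In the 4 ctrl mice alone, these differences of Adm were 0.53 ± 0.41 and 0.42 ± 0.37. Adm2 was close to absent, with a highest value of 1.23 TPM among the 48 libraries and no value of 1 TPM or more outside diaphragm LEC, and it passed the filter on low values in no population.

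The receptor Calcrl and its main partner Ramp2 were at like levels in all 3 endothelial populations. Calcrl averaged 266 ± 71.4 TPM in diaphragm LEC, 213 ± 42.6 TPM in heart BEC and 211 ± 91.0 TPM in heart LEC, and its level in cardiomyocytes was 30.4 ± 6.52 TPM, 6.94-fold under heart LEC and outside its range. Ramp2 had the highest level of the 9 genes in every population, 1006 ± 173 TPM in heart LEC, 974 ± 85.3 TPM in heart BEC, 967 ± 139 TPM in diaphragm LEC and 215 ± 26.1 TPM in cardiomyocytes. Calcrl was nevertheless lower in heart LEC than in diaphragm LEC in 10 of 11 mice, by a mean difference of -0.51 ± 0.41 in log2(TPM + 1). In ctrl mice alone this difference of Calcrl was -0.85 ± 0.40 (n = 4), with 137 ± 77.5 TPM in heart LEC and 228 ± 65.6 TPM in diaphragm LEC.

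Ramp2 was 4.50-fold lower in cardiomyocytes than in diaphragm LEC with no overlap, whereas Ramp3 was highest in heart BEC and Ramp1 in cardiomyocytes. Ramp3 was at 138 ± 34.0 TPM in heart BEC against 25.4 ± 16.3 TPM in heart LEC, a 5.43-fold difference with no overlap, and at 22.2 ± 16.8 TPM in diaphragm LEC and 22.1 ± 6.27 TPM in cardiomyocytes. Ramp1 was at 12.8 ± 4.33 TPM in cardiomyocytes and at 0.837 to 1.33 TPM on average in the endothelial populations. The lowest cardiomyocyte library had 6.47 TPM and the highest diaphragm LEC library, ctrl mouse 9, had 6.63 TPM, so that these neighbors overlapped through 1 library. In the same mouse, Ramp1 was lower in heart BEC than in cardiomyocytes in 12 of 12 mice, by a mean difference of -2.84 ± 0.50 in log2(TPM + 1).

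**Figure D1:**
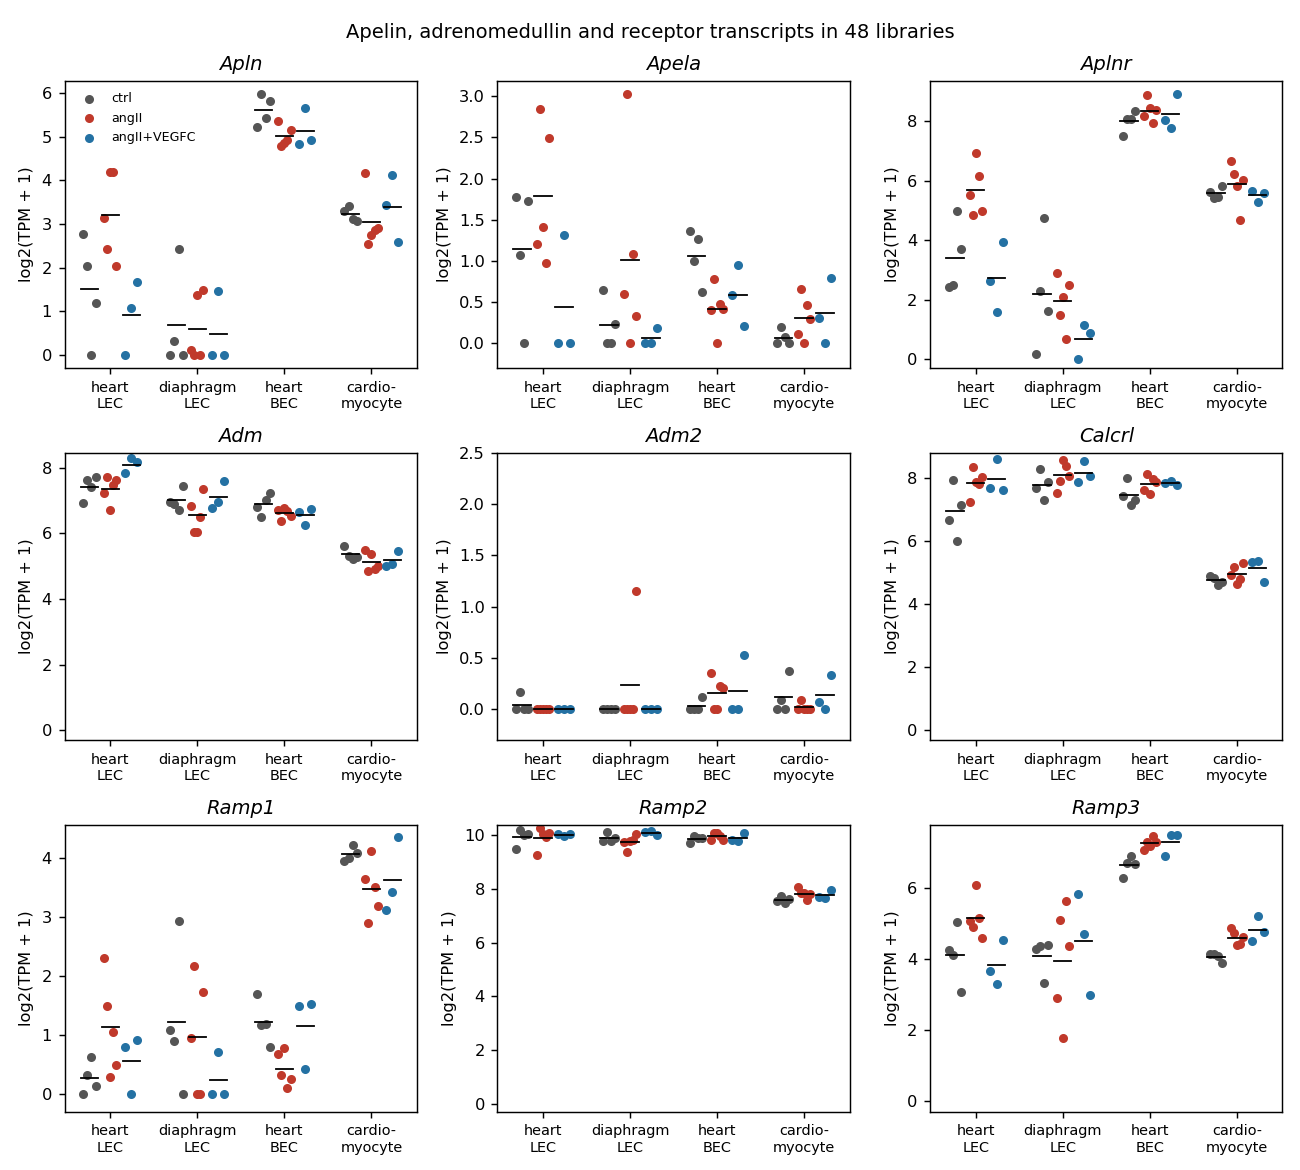
TPM of the 9 genes in the 48 libraries, by population, on a log2(TPM + 1) axis, with points for libraries and lines for means. Aplnr, Apln and Ramp3 are highest in heart BEC (305, 38.3 and 138 TPM on average), Adm in heart LEC (197 TPM) and Ramp1 in cardiomyocytes (12.8 TPM).

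As shares of the summed TPM of Ramp1, Ramp2 and Ramp3, Ramp2 took 97.4% ± 1.71 in heart LEC, 97.6% ± 1.72 in diaphragm LEC, 87.6% ± 2.51 in heart BEC and 86.0% ± 1.85 in cardiomyocytes (SD, n = 12). Most of the rest was Ramp3, at 12.3% ± 2.55 in heart BEC and 8.80% ± 2.15 in cardiomyocytes but 2.53% ± 1.63 and 2.25% ± 1.70 in heart and diaphragm LEC. Ramp1 reached 5.19% ± 1.88 in cardiomyocytes and averaged 0.0881% to 0.150% in endothelium. The summed RAMP TPM was on average 5.97 ± 3.64 times that of Calcrl in heart LEC and 3.94 ± 1.01 times in diaphragm LEC. It was 5.42 ± 1.13 times in heart BEC and 8.53 ± 1.91 times in cardiomyocytes. The medians were 4.86, 4.03, 5.05 and 8.70 in this order. In heart LEC the ratio was 9.11 ± 5.19 in ctrl, where mouse 9 had 16.7, against 4.38 ± 0.35 in angII and 4.42 ± 1.58 in angII+VEGFC.

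**Figure D2:**
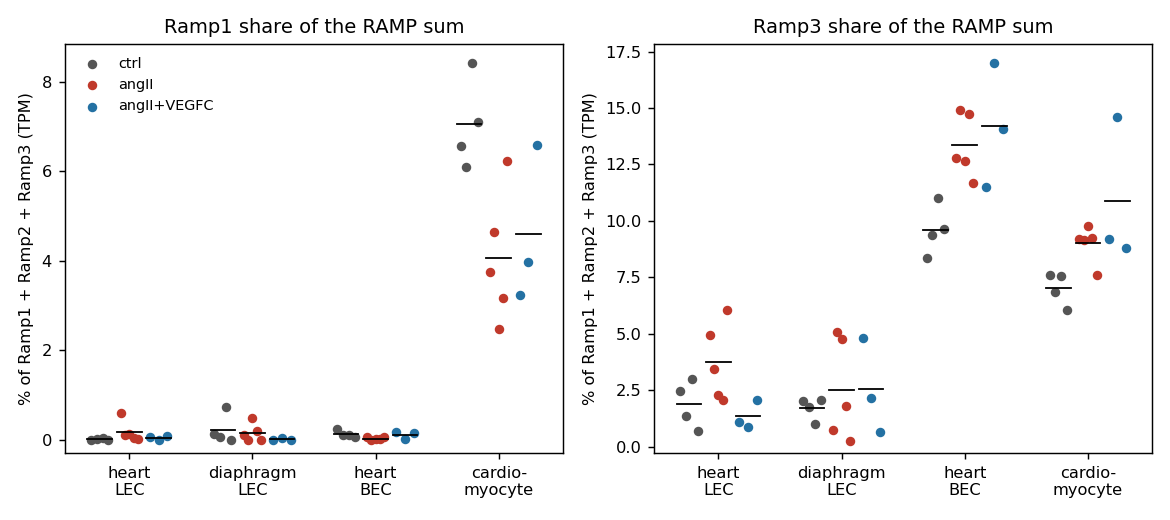
Share of Ramp1 and of Ramp3 in the summed TPM of Ramp1, Ramp2 and Ramp3, in percent, for each library by population and treatment. The Ramp3 share of heart BEC runs from 8.38% to 11.0% in ctrl and from 11.7% to 14.9% in angII.

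RNA of the blood endothelial markers was also found in the cardiomyocyte libraries, which were sequenced in another batch. The summed TPM of the 6 blood endothelial markers in cardiomyocyte libraries was 11.8% to 21.1% of that in the BEC of the same mouse (median 16.3%). Calcrl, Ramp3 and Aplnr stood at medians of 15.4%, 15.6% and 16.7% of their BEC level, Apln and Ramp2 at 19.6% and 21.9%, and Adm at 35.5%. Whether these transcripts, or the marker RNA itself, came from endothelial cells in the pellet was not tested. Adm, at 25.7% to 43.3%, lay above the range of the marker sum in all libraries, and Ramp1 was higher in cardiomyocytes than in BEC of every mouse.

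AngII and VEGFCc156s were tested within each population by limma on log2(TPM + 1), with age and, in endothelium, batch as covariates and Benjamini-Hochberg adjustment over every gene that reached 1 TPM in 3 or more of the libraries. With 8 of the 9 genes tested in heart LEC, 7 in diaphragm LEC, 8 in heart BEC and 7 in cardiomyocytes, 0 passed an adjusted p of 0.05 in any of the 3 contrasts. The background was as low: in heart LEC, 0.0261% of 26803 genes were called in angII vs ctrl and 0% in both other contrasts, in diaphragm LEC and heart BEC 0% in every contrast, and in cardiomyocytes 0.0892% in angII vs ctrl, 0% in angII+VEGFC vs angII and 0.663% in angII+VEGFC vs ctrl. The differences below are given beside counts of unadjusted p-values, and by the adjusted threshold no member changed. The 3 contrasts share libraries, so their values are not independent of each other.

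In heart LEC, 4 of the 8 genes tested had an unadjusted p under 0.05 in angII vs ctrl, all higher with angII, where 10.9% of all genes did. None of the 8 was without overlap between the groups, where 2.62% of all genes were, and the median log2 difference was 0.94 over the 8 genes against 0.23 over all genes. Apln was at 5.81, 3.11, 0 and 1.30 TPM in the ctrl libraries (mice 1, 5, 9 and 11) and at 7.86, 4.42, 17.4, 17.2 and 3.14 TPM in the angII libraries (mice 3, 12, 14, 15 and 18). Aplnr was at 4.32, 4.60, 30.7 and 12.1 TPM in ctrl and at 44.8, 27.6, 122, 70.8 and 30.5 TPM in angII, in the same order of mice. For both genes mice 14 and 15 had the highest values and the groups overlapped, with the angII library higher in 18 of 20 pairs of libraries. The differences were 1.98 ± 0.60 (SE, adjusted p = 0.280 by limma) for Apln and 2.17 ± 0.58 (adjusted p = 0.223) for Aplnr, on the log2(TPM + 1) scale. With each of the 9 libraries left out in turn, both kept an unadjusted p under 0.05. Within batches 1 and 2 the difference in mean log2 values was 1.88 and 1.50 for Apln and 2.07 and 2.48 for Aplnr.

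Of the adrenomedullin system, Calcrl and Ramp3 had an unadjusted p under 0.05 in angII vs ctrl, and Adm and Ramp2 did not. Ramp3 was at 18.2, 16.3, 32.1 and 7.49 TPM in ctrl and at 32.7, 28.9, 67.8, 35.0 and 23.2 TPM in angII, a log2 difference of 1.02 ± 0.41 (adjusted p = 0.387 by limma), and 18 of 20 pairs were higher with angII. Calcrl was at 101, 244, 63.9 and 141 TPM in ctrl and at 150, 325, 234, 224 and 260 TPM in angII, a log2 difference of 0.99 ± 0.33 (adjusted p = 0.309), of which 1.47 was seen in batch 1 and 0.38 in batch 2. Mouse 9 gave the lowest Calcrl and the highest Ramp3 of the ctrl group. With each of the 9 libraries left out in turn, Calcrl kept an unadjusted p under 0.05 in 8 of 9 fits and ran from 0.56 (without ctrl mouse 9, unadjusted p = 0.132 by limma) to 1.30. Ramp3 kept one in 6 of 9 and ran from 0.65 (without ctrl mouse 11, unadjusted p = 0.141) to 1.53. Adm, at 120, 195, 172 and 211 TPM in ctrl and 151, 212, 104, 176 and 198 TPM in angII, differed by -0.05 ± 0.22, and Ramp2 likewise by -0.05 ± 0.17. Ramp1 and Apela, both at low levels, differed by 0.90 ± 0.48 and 0.62 ± 0.61. Ramp1 reached 1 TPM in 3 angII libraries and in 0 of the ctrl and angII+VEGFC libraries. It passed the filter on low values only through angII, which bears on the median of the 8 genes.

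Marker RNA of blood endothelium and of some other cell types moved with these values. The 6 blood endothelial markers summed to 1940 to 3438 TPM in heart LEC of ctrl mice, 3532 to 8074 TPM in angII and 2365 to 2754 TPM in angII+VEGFC, which was 12.8% to 21.0%, 18.9% to 47.8% and 12.5% to 15.1% of the sum in BEC of the same mouse. Of these markers, 4 of 6 had an unadjusted p under 0.05 in angII vs ctrl, all higher, and 3 of 6 in angII+VEGFC vs angII, all lower, with 0 of 6 past the adjusted threshold. Their median log2 difference was 0.66 in angII vs ctrl and -0.62 in angII+VEGFC vs angII. For 6 cardiomyocyte markers these medians were 1.03 and -0.89, for 6 pericyte and smooth muscle markers 1.38 and -0.84, and for 4 erythroid and platelet markers 2.23 and -2.84. Over all genes they were 0.23 and -0.37. Not every list took this course. The medians were -0.44 and 1.67 for macrophage, 0.71 and -0.06 for fibroblast, -0.04 and 0.24 for endocardial and 0.10 and 0.09 for lymphatic markers. For skeletal muscle markers they were 1.44 and -1.25. Erythroid and platelet markers summed to 10.7 to 1157 TPM in ctrl, 1111 to 3395 TPM in angII and 2.93 to 271 TPM in angII+VEGFC, and cardiomyocyte markers to 135 to 384, 160.2 to 962 and 162 to 321 TPM. The pericyte and smooth muscle sum, at 45.4 to 318, 106 to 656 and 74.3 to 206 TPM, overlapped among all 3 groups, as the cardiomyocyte sum did. Aplnr in heart LEC was at 1.74% to 11.4% of its BEC level in ctrl, 5.95% to 35.5% in angII and 0.931% to 2.99% in angII+VEGFC, and Ramp3 at 7.36% to 26.7%, 14.8% to 47.0% and 4.86% to 12.5%. More genes were also detected in heart LEC of angII mice, 19957 to 25896 at 1 TPM or more against 16131 to 24086 in ctrl and 16756 to 18884 in angII+VEGFC. The number of genes detected was a covariate in an alternative fit. Over the alternatives other than leaving out single libraries, the angII vs ctrl difference ran from 1.28 to 3.28 for Apln and from 1.63 to 3.36 for Aplnr. It ran from 0.70 to 1.72 for Ramp3 and from 0.92 to 1.05 for Calcrl. Beyond this, the part of these cell types and of gene number in the differences was not tested. Without the libraries of mice 14 and 15, the angII vs ctrl difference was 1.28 ± 0.65 for Apln (unadjusted p = 0.0695), 1.63 ± 0.66 for Aplnr (0.0268), 0.70 ± 0.47 for Ramp3 (0.160) and 1.03 ± 0.40 for Calcrl (0.0215) by limma.

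**Figure D3:**
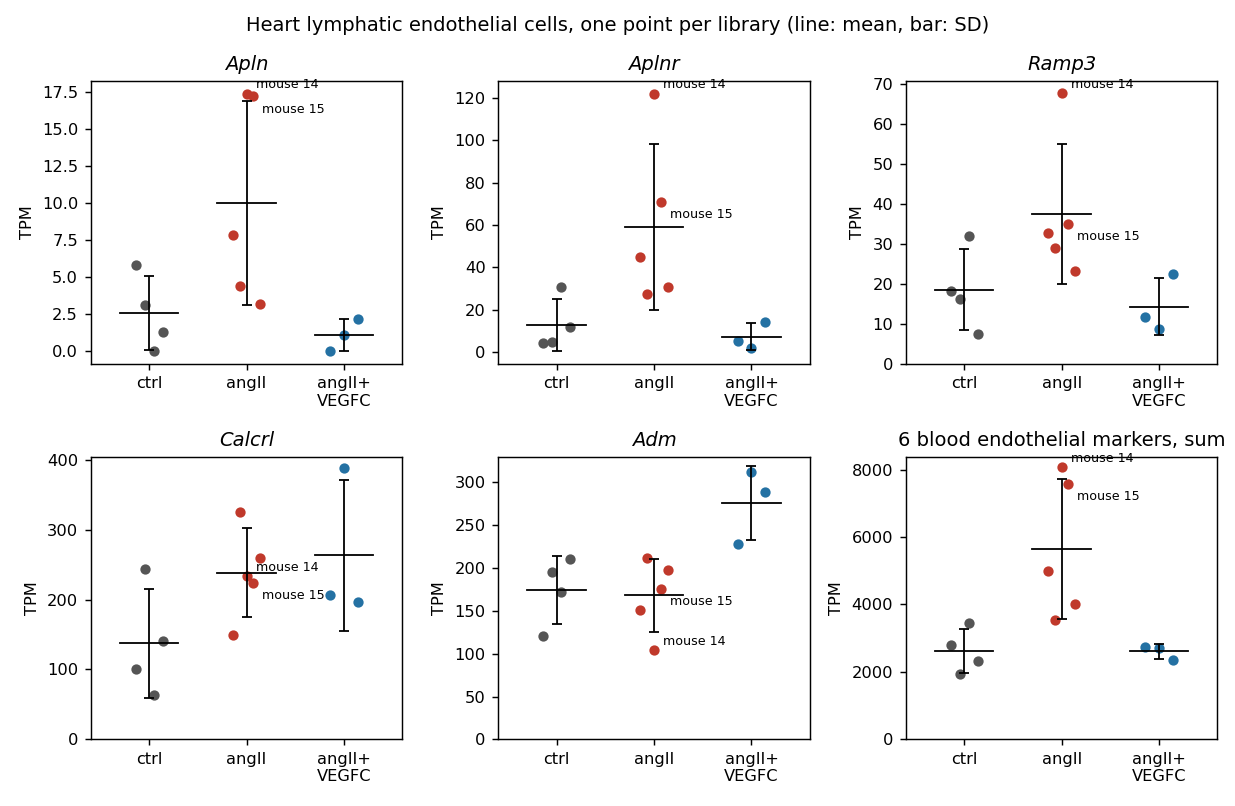
TPM of Apln, Aplnr, Ramp3, Calcrl and Adm and the sum of 6 blood endothelial markers in each heart LEC library by treatment, with bars for the mean and labels for mice 14 and 15. The angII+VEGFC libraries lie under all angII libraries for Apln, Aplnr and Ramp3 and above them for Adm, and the marker sum of angII (3532 to 8074 TPM) lies above both other groups.

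In angII+VEGFC vs angII, the heart LEC groups did not overlap for 4 genes of the family, Apln, Aplnr, Ramp3 and Adm, and the same genes were the 4 of 8 with an unadjusted p under 0.05. Over all genes, 8.15% did not overlap and 10.8% had such a p. Apln was at 0, 1.10 and 2.17 TPM in the angII+VEGFC libraries (mice 2, 6 and 8), Aplnr at 5.20, 2.01 and 14.2 TPM and Ramp3 at 11.7, 8.80 and 22.4 TPM, all below the lowest angII library. The log2 differences were -2.96 ± 0.72 for Apln (adjusted p = 0.413 by limma), -2.67 ± 0.69 for Aplnr (adjusted p = 0.413) and -1.28 ± 0.49 for Ramp3 (adjusted p = 0.423). Adm went the other way, at 228, 312 and 288 TPM in angII+VEGFC, above every angII and every ctrl library, a log2 difference of 0.71 ± 0.27 from angII (adjusted p = 0.422). The median difference of the 8 genes was -0.97, against -0.37 over all genes. With each of the 8 libraries left out in turn, Apln and Aplnr kept an unadjusted p under 0.05, Adm kept one in 7 of 8 and Ramp3 in 6 of 8. Without angII+VEGFC mouse 6, Adm differed by 0.45 (unadjusted p = 0.146 by limma) and Ramp3 by -0.69 (0.198). The count of members with an unadjusted p under 0.05 was 3 without mouse 6 or mouse 2. Without mouse 6, that count took in a member other than these 4 genes.

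Both batches gave these directions, although batch 1 holds a single angII+VEGFC library: -2.19 and -2.29 for Apln, -4.18 and -2.29 for Aplnr, -2.07 and -0.78 for Ramp3, and 1.06 and 0.46 for Adm. With the angII libraries of mice 14 and 15 left out, the differences were -2.27 ± 0.76 for Apln (unadjusted p = 0.00950 by limma), -2.17 ± 0.77 for Aplnr (0.0133), -0.98 ± 0.55 for Ramp3 (0.0957) and 0.55 ± 0.28 for Adm (0.0638). Calcrl, at 206, 388 and 196 TPM, and Ramp2, at 1054, 998 and 1052 TPM, differed from angII by -0.07 ± 0.39 and 0.18 ± 0.20.

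Against ctrl, angII+VEGFC differed for fewer members in heart LEC. Adm was 1.58-fold higher by means, with all 3 libraries above the 4 ctrl libraries and a log2 difference of 0.65 ± 0.26 (adjusted p = 0.915 by limma), and Calcrl differed by 0.92 ± 0.38 (adjusted p = 0.915) with overlap. These were the 2 of 8 genes with an unadjusted p under 0.05, where 4.94% of all genes had one, and Adm was the 1 gene without overlap, where 3.96% of all genes had none. The count of 2 was 0 without angII+VEGFC mouse 6 or ctrl mouse 1, and 1 without ctrl mouse 9. Apln and Aplnr differed by -0.99 ± 0.70 and -0.50 ± 0.67. The median over the 8 genes was -0.06, against -0.13 over all genes.

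In diaphragm LEC, 0 of the 7 genes tested had an unadjusted p under 0.05 in any contrast, where 15.3%, 8.78% and 1.32% of all genes did in angII vs ctrl, angII+VEGFC vs angII and angII+VEGFC vs ctrl. Adm was at 124, 118, 105 and 173 TPM in ctrl (mice 1, 5, 9 and 11), at 114, 65.4, 64.9, 89.8 and 163 TPM in angII (mice 3, 4, 14, 15 and 18) and at 108, 123 and 195 TPM in angII+VEGFC (mice 2, 6 and 8). All 3 groups overlapped, and the log2 differences were -0.40 ± 0.25 for angII vs ctrl and 0.41 ± 0.28 for angII+VEGFC vs angII. Ramp3 ran from 2.41 to 48.7 TPM in angII and from 6.88 to 56.7 TPM in angII+VEGFC, against 9.06 to 20.3 TPM in ctrl. Aplnr stood at 25.6 TPM in ctrl mouse 9 and at 0 to 6.48 TPM in the other 11 libraries. With that library, Aplnr differed by -0.32 ± 0.75 in angII vs ctrl, and without it by 0.73 ± 0.71, with unadjusted p = 0.674 and 0.319 by limma. Apln turned likewise from -0.15 ± 0.50 to 0.27 ± 0.55, and Ramp1 from -0.34 ± 0.59 to 0.38 ± 0.59, so the direction of all 3 turned with that library.

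In heart BEC, Ramp3 was the member with the smallest p. It was at 78.0, 103, 120.04 and 102 TPM in ctrl (mice 1, 5, 9 and 11), at 133, 159, 144, 178 and 156 TPM in angII (mice 3, 12, 14, 15 and 18) and at 120.11, 181 and 180 TPM in angII+VEGFC (mice 2, 6 and 8). Neither infused group overlapped with ctrl, although angII+VEGFC mouse 2 and ctrl mouse 9 were nearly level, and both infused groups overlapped with each other. The log2 difference was 0.62 ± 0.16 in angII vs ctrl (1.53-fold by means, adjusted p = 0.697 by limma) and 0.66 ± 0.19 in angII+VEGFC vs ctrl (1.59-fold, adjusted p = 0.798), contrasts that share the ctrl libraries. Within batches, angII vs ctrl was 0.58 and 0.69, and the unadjusted p stayed under 0.05 with each of the 9 libraries left out in turn. The Ramp3 share of the RAMP sum was 9.61% ± 1.09 in ctrl (n = 4), 13.3% ± 1.40 in angII (n = 5) and 14.2% ± 2.74 in angII+VEGFC (n = 3), again without overlap with ctrl.

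**Figure D4:**
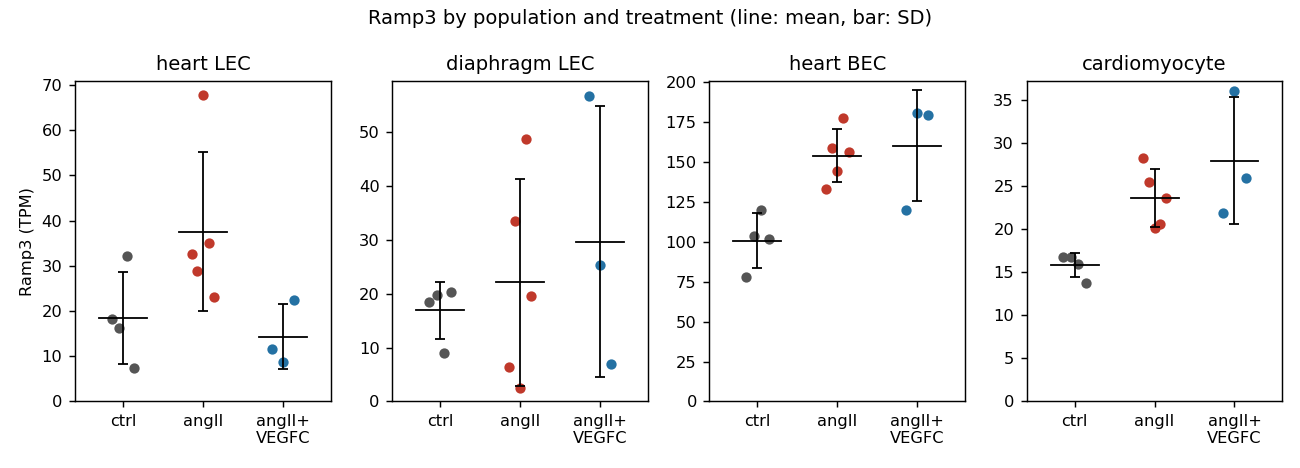
TPM of Ramp3 in each library by treatment in the 4 populations, with bars for the mean. Ctrl lies below both infused groups in heart BEC (78.0 to 120.04 TPM against 120.11 to 181 TPM) and in cardiomyocytes (13.8 to 16.8 TPM against 20.2 to 36.1 TPM), while the groups overlap in diaphragm LEC.

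Of the other genes in heart BEC, Apln was lower with angII, at 36.1, 61.9, 42.0 and 55.3 TPM in ctrl and 40.2, 26.4, 28.0, 29.3 and 34.4 TPM in angII, with overlap through mice 1 and 3. The log2 difference was -0.53 ± 0.20 (adjusted p = 0.862 by limma), the opposite sign of that in heart LEC. Calcrl differed by 0.40 ± 0.16, and the low genes Ramp1 and Apela differed by -0.77 ± 0.33 and -0.68 ± 0.28. Together 5 of 8 genes had an unadjusted p under 0.05, 2 higher and 3 lower, where 5.40% of all genes had one, and Ramp3 and Ramp1 were the 2 without overlap, where 1.88% of all genes had none. Apela reached 1 TPM in 3 ctrl libraries and in 0 of the angII and angII+VEGFC libraries. It passed the filter on low values only through the group where it was high, so its place in the count is no support. Ramp1 reached 1 TPM in 3 ctrl, 0 angII and 2 angII+VEGFC libraries and likewise passed only with ctrl, the higher group of this contrast. Its place in both counts is no support either. Its groups lay close, at up to 0.717 TPM in angII and from 0.743 TPM in ctrl. The count of 5 ran from 1 to 4 with each of the 9 libraries left out in turn, and it was 1, Ramp3, without ctrl mouse 9 and 2 without ctrl mouse 1 or angII mouse 15. Apela was tested in 6 of these 9 fits and could not be counted in the rest. Aplnr, at 180 to 324 TPM in ctrl and 241 to 464 TPM in angII, differed by 0.34 ± 0.25, and Ramp2 by 0.09 ± 0.11.

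Between angII+VEGFC and angII in heart BEC, the groups overlapped for every member. In this contrast, 0 of 8 genes had an unadjusted p under 0.05, where 2.59% of all genes did, and the log2 differences ran from -0.10 for Calcrl to 0.68 ± 0.39 for Ramp1. In angII+VEGFC vs ctrl, 2 of 8 did, Ramp3 and Apln (-0.56 ± 0.23), where 5.51% of all genes did, and Ramp3 was the 1 gene without overlap, where 4.93% had none. Pericyte and smooth muscle markers summed to 264 to 331 TPM in heart BEC of ctrl mice against 139 to 256 TPM in angII, and 3 of 6 blood endothelial markers were higher with an unadjusted p under 0.05. Their part in the Ramp3 and Apln differences was not tested.

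In cardiomyocyte libraries Ramp3 showed the same order of groups as in heart BEC. Ramp3 was at 16.7, 16.8, 15.9 and 13.8 TPM in ctrl, at 28.2, 25.5, 20.2, 20.6 and 23.6 TPM in angII and at 21.8, 36.1 and 26.0 TPM in angII+VEGFC. Every infused mouse was above every ctrl mouse, and both infused groups overlapped. The log2 difference was 0.59 ± 0.17 in angII vs ctrl (adjusted p = 0.194 by limma) and 0.69 ± 0.19 in angII+VEGFC vs ctrl (1.77-fold by means, adjusted p = 0.135). Ramp3 was the 1 of 7 genes with an unadjusted p under 0.05 and the 1 of 7 without overlap in both contrasts. Over all genes, 9.85% and 12.9% had such a p and 5.67% and 14.0% did not overlap in these contrasts. In angII+VEGFC vs angII 0 of 7 genes had such a p, where 2.41% of all genes did, and Ramp3 differed by 0.10 ± 0.20.

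The heart BEC and cardiomyocyte libraries came from the same hearts, so their Ramp3 values are not independent. Blood endothelial markers in cardiomyocyte libraries summed to 2328 to 3085 TPM in ctrl, 1998 to 3478 TPM in angII and 2644 to 3567 TPM in angII+VEGFC, with overlap, while macrophage markers summed to 507 to 655, 744 to 1496 and 764 to 1678 TPM. All 6 macrophage markers were higher in angII with an unadjusted p under 0.05. Whether either cell type carried the Ramp3 difference was not tested. Ramp1 in cardiomyocytes was at 14.5, 15.0, 17.7 and 16.1 TPM in ctrl and at 11.5, 6.47, 16.5, 10.4 and 8.10 TPM in angII, a log2 difference of -0.54 ± 0.27 (unadjusted p = 0.0595 by limma), and its share of the RAMP sum was 7.05% ± 1.01 in ctrl (n = 4) and 4.05% ± 1.45 in angII (n = 5). Apln, at 17.0 TPM in angII mouse 3 and 4.79 to 6.54 TPM in the other 4 angII mice, differed from ctrl by -0.08 ± 0.31 with that library and by -0.41 ± 0.30 without it.

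**Figure D5:**
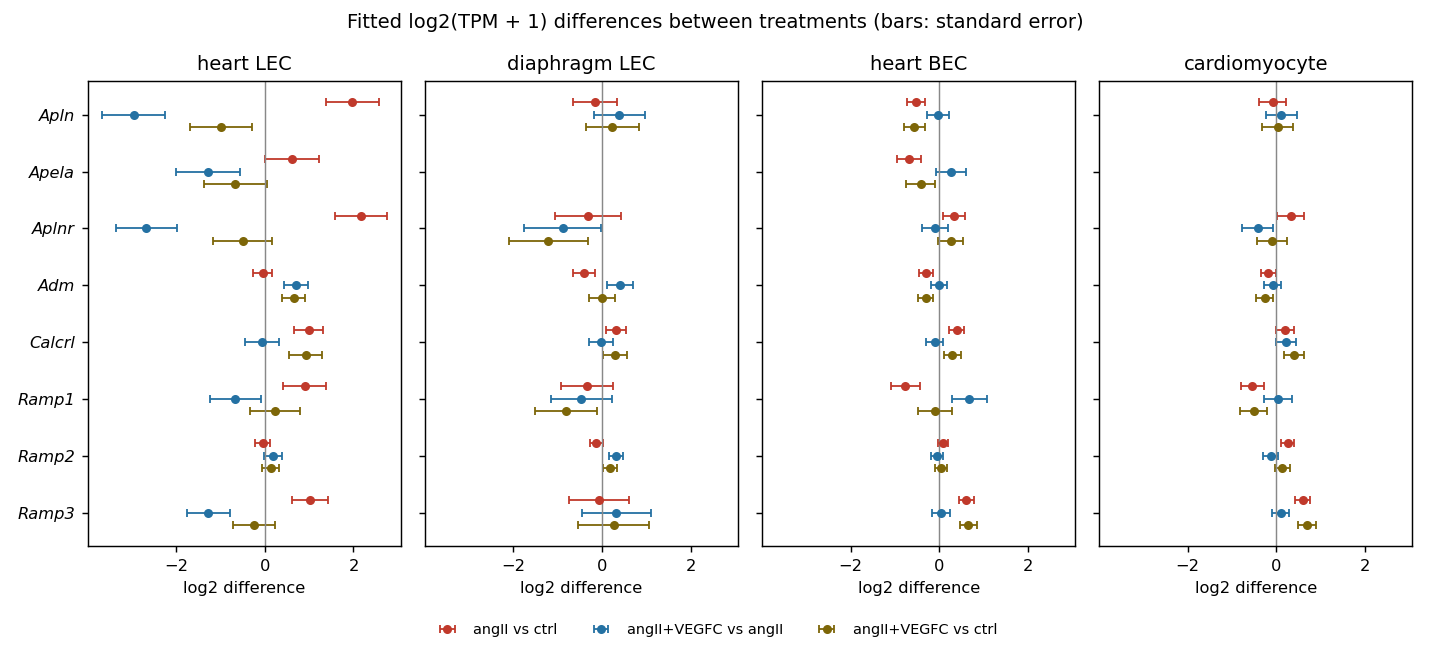
Difference of log2(TPM + 1) with its SE for each member and contrast in the 4 populations. In heart LEC, Aplnr and Apln lie at 2.17 and 1.98 in angII vs ctrl and at -2.67 and -2.96 in angII+VEGFC vs angII, while the differences in diaphragm LEC are within 1 of 0 apart from Aplnr in angII+VEGFC vs ctrl (-1.21).

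Whether the effect of treatment differed among the endothelial populations was tested by a moderated F-test of limma over the 36 endothelial libraries. These came from 13 mice, and the main fit had no term for mouse. For angII vs ctrl, Apln (unadjusted p = 0.0107, adjusted p = 0.415 by limma) and Aplnr (unadjusted p = 0.0173, adjusted p = 0.438) were the 2 of 8 genes with an unadjusted p under 0.05, and 0 of 8 passed the adjusted threshold, where 10.2% and 0% of 32754 genes did. Relative to heart LEC, the angII effect on Apln differed by -2.30 in heart BEC and by -1.84 in diaphragm LEC, and that on Aplnr by -1.93 and -2.45, on the log2 scale. For angII+VEGFC vs angII the same genes had an unadjusted p under 0.05, Apln at 0.00939 and Aplnr at 0.0154 (adjusted p = 0.801 for both by limma), where 6.08% of all genes did and 0% passed. For Adm and Ramp3 the unadjusted p of this difference was 0.0624 and 0.0733. With mouse as a block, the unadjusted p by limma in the 2 contrasts was 0.0198 and 0.0183 for Apln and 0.00563 and 0.00443 for Aplnr. In that fit 4 of 8 members had an unadjusted p under 0.05 in each contrast, where 3663 and 2497 of 32754 genes did. Again 0 of 8 members passed the adjusted threshold.

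Other genes of the pathways were read from lists of peptide-processing, signaling, hypoxia-induced and tip-cell genes, and 0 of them passed the adjusted threshold in any contrast. Of 12 genes for peptide processing, binding and clearance, 11 were tested in heart LEC. Ece1, an endopeptidase, and Ackr3, a scavenger receptor that takes up adrenomedullin, were abundant in lymphatic cells, Ece1 at 1353 ± 307 TPM in heart LEC and 1450 ± 346 TPM in diaphragm LEC against 515 ± 82.8 TPM in heart BEC, and Ackr3 at 302 ± 65.1, 496 ± 158 and 258 ± 51.1 TPM. Ece1 in heart LEC differed by 0.54 ± 0.21 on the log2 scale in angII+VEGFC vs angII (adjusted p = 0.429 by limma). In that contrast 2 of the 11 genes had an unadjusted p under 0.05, both higher, where 10.8% of all genes did.

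Of 9 tip-cell genes, a group in which Apln is usually counted, 3 had an unadjusted p under 0.05 in angII vs ctrl of heart LEC, all higher, where 10.9% of all genes did. The median log2 difference of the 9 was 0.38, against 0.23 over all genes. Esm1, which codes for endocan, was at 6.56 ± 3.68 TPM in angII (n = 5), 0.645 ± 0.871 TPM in ctrl (n = 4) and 1.57 ± 1.37 TPM in angII+VEGFC (n = 3), with log2 differences of 2.35 ± 0.52 (adjusted p = 0.157 by limma) and -2.03 ± 0.62 (adjusted p = 0.413) for the contrasts that involve angII. Cxcr4, a chemokine receptor, differed by 1.50 ± 0.48 in angII vs ctrl. Of 12 hypoxia-induced genes, 11 were tested and 2 had an unadjusted p under 0.05 in angII vs ctrl, both higher, where 10.9% of all genes did: Ankrd37 by 0.98 ± 0.31 and the glucose transporter Slc2a1 by 0.81 ± 0.34. In angII+VEGFC vs angII, Ankrd37 was the 1 hypoxia-induced gene with such a p, where 10.8% of all genes had one, at -1.19 ± 0.37, while Adm was higher in that contrast.

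Of 18 signaling genes in heart LEC, 3 had an unadjusted p under 0.05 in angII vs ctrl and 0 in angII+VEGFC vs angII, where 10.9% and 10.8% of all genes did. Crcp, which codes for a component that couples Calcrl to its G protein, was at 39.6 ± 7.61 TPM in angII against 18.3 ± 12.8 TPM in ctrl, a log2 difference of 2.22 ± 0.59 (adjusted p = 0.220 by limma), and Rapgef3, a target of cyclic AMP, differed by 1.04 ± 0.39. In heart BEC, Kdr of the tip-cell list differed by 0.39 ± 0.14 and the receptor kinase gene Grk2 by 0.46 ± 0.17 in angII vs ctrl. In that contrast 1 of 9 tip-cell and 1 of 18 signaling genes had an unadjusted p under 0.05, where 5.40% of all genes did. In cardiomyocytes, Adcy7, an adenylate cyclase, differed by 1.09 ± 0.34 in angII vs ctrl and by 1.31 ± 0.39 in angII+VEGFC vs ctrl. Of the 18 signaling genes there, 1 had an unadjusted p under 0.05 in angII vs ctrl, where 9.85% of all genes did. In angII+VEGFC vs ctrl 1 was higher and 1 lower with such a p, where 12.9% of all genes had one. Of the related peptides and receptor Calca, Calcb, Calcr and Iapp, 1 was tested in heart LEC, 2 in diaphragm LEC, 1 in heart BEC and 0 in cardiomyocytes, and Calca, Calcb and Calcr averaged under 1 TPM in every population.

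The genes whose pattern over the 48 libraries was most like that of each member are given as a description, since the libraries share mice and batches. By Pearson correlation of log2(TPM + 1) among 10382 genes, Aplnr was most like Lims2 (r = 0.974), Sparcl1 (0.967) and C1qtnf9 (0.965), and Apln was most like Tmem255b (0.943), Sox17 (0.941) and Zfp366 (0.938). Adm was most like Smagp (0.925), Hyal1 (0.914) and Il27ra (0.909), and Calcrl like Ppm1f (0.963), Arhgap29 (0.961) and Tmem30a (0.959). For Ramp1 the nearest genes were Gpc1 (0.925), Sgca (0.923) and Susd5 (0.906), all highest in cardiomyocytes. Ramp2 was nearest to Sypl (0.981), H2-T23 (0.978) and Gngt2 (0.975), and Ramp3 to Dlc1 (0.877), Nrarp (0.874) and 6430562O15Rik (0.866).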

How the data were processed

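RNA from sorted heart LEC, diaphragm LEC, heart BEC and pelleted cardiomyocytes had been amplified with an ultra-low-input SMART-Seq kit and sequenced. The authors aligned reads with STAR 2.5.3a and quantified transcripts with Salmon 0.12.0 on GRCm38, and deposited gene-level TPM for 54752 genes in 48 libraries, of which 54723 were matched to a symbol. TPM keeps no read depth, library totals were 997657 to 999929, and amplification of little RNA makes low values variable. Samples were grouped by their labels.

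Members and gene lists were chosen with earlier results of these data known. Within each population, limma 3.58.1 (R 4.3.3, trend) was fitted to log2(TPM + 1) for every gene that reached 1 TPM in 3 or more of the libraries, with age and, for endothelium, batch, and p-values were adjusted over all genes. Fold differences of low genes are understated on this scale. Levels, shares of the RAMP sum and correlations were described without a test. All 9 members are named. Of each pathway list, genes past the adjusted threshold, or else at most the 2 with the smallest p in a contrast, could be named, and some of these are not reported here. For likeness, the 3 genes with the highest correlation among those that reached 10 TPM in 6 or more libraries are given, for members with a median of at least 10 TPM in a population. The scripts were tested on simulated data. Alternatives were a pseudocount of 0.1, no filter, no covariates, quantile normalization, the number of genes detected as a covariate, mouse as a block and each library left out in turn. Promoters were read from RefSeq (GRCm38.p6).

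Labels give age in months, which differs from the unit in the study's methods. A shift of all ages by 1 factor would leave the fits the same.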

Additional observations from a re-analysis of the deposited data

Results flagged for a closer look

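In 11 of 70 groups of 4 or 5 libraries examined, 1 library was set apart from the rest of its group for a member by a wide gap, where chance sets apart about 1 in 20 groups. That rate does not cover 4 of the 11, in which every other library was at 0 and any value above 0 stands apart. It also takes no account of the floor of TPM at 0, or of the same libraries being examined for each member. The count is therefore a description, and no excess over that rate is claimed. In diaphragm LEC, ctrl mouse 9 was high for Apln (4.38 TPM against 0 to 0.248), Aplnr (25.6 TPM against 0.122 to 3.89) and Ramp1 (6.63 TPM against 0 to 1.13) and low for Ramp3 (9.06 TPM against 18.5 to 20.3), and pericyte and smooth muscle markers summed to 472 TPM in it. In heart LEC, angII mouse 14 was high for Ramp3 (67.8 TPM against 23.2 to 35.0) and had 47.8% of the blood endothelial marker level of its BEC. Apln stood at 17.0 TPM in cardiomyocytes of angII mouse 3 (others 4.79 to 6.54), and Apela at 7.19 TPM in diaphragm LEC of angII mouse 4 (others 0 to 1.12).

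Adm2 was listed above 0 in 1 library of its group at 0.121 TPM in heart LEC of ctrl mouse 5, 1.23 TPM in diaphragm LEC of angII mouse 18, 0.0846 TPM in heart BEC of ctrl mouse 11 and 0.0641 TPM in cardiomyocytes of angII mouse 12, with the rest of each group at 0.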

How the results depend on the processing

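For 19 member differences with an unadjusted p under 0.05, alternatives gave 257 values. Of these, 254 kept their direction and their side of the adjusted threshold, and 0 turned direction. All 19 had failed that threshold in the main fit, so keeping their side of it says little about stability. The 3 exceptions among the 257 values were Ramp3 in cardiomyocytes. With the number of genes detected as a covariate, 1 member was called in angII vs ctrl (Ramp3 0.63, adjusted p = 0.0446 by limma) and 1 in angII+VEGFC vs ctrl (Ramp3 0.78, adjusted p = 0.0307). That setting called 473 and 769 of all genes in these contrasts, against 14 and 104 in the main fit. Leaving out each library gave 0 to 1 members in angII+VEGFC vs ctrl, the 1 without angII+VEGFC replicate 3, mouse 8 (Ramp3 0.77, adjusted p = 0.0406), where 852 of all genes were called. Over the alternatives, the adjusted p of Ramp3 ran from 0.0446 to 0.552 and from 0.0307 to 0.381 in these contrasts. The cause was not tested. Over all genes, 14 and 104 were called in them and 0 to 473 and 0 to 852 under alternatives, and 7 were called in heart LEC angII vs ctrl and 0 to 31 under alternatives. Counts of members with an unadjusted p under 0.05 also moved under alternatives other than leaving out single libraries. In heart LEC they ran from 2 to 4 in angII vs ctrl (main fit 4). They ran there from 2 to 5 in angII+VEGFC vs angII (4) and from 1 to 2 in angII+VEGFC vs ctrl (2). Heart BEC gave 4 to 5 in angII vs ctrl (5) and 1 to 2 in angII+VEGFC vs ctrl (2). Cardiomyocytes gave 1 to 3 in both contrasts with ctrl (1).

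In ctrl libraries only, the level of Ramp3 was 101 TPM in heart BEC and 15.8 TPM in cardiomyocytes, and in heart BEC the share of Ramp2 was 90.3% and that of Ramp3 9.61%. With mouse as a block in the test across endothelial populations, 0 of 8 members and 1 of all genes were called in angII vs ctrl and 0 and 0 in angII+VEGFC vs angII. With the block, 4 of 8 members had an unadjusted p under 0.05 in each contrast, against 2 without it. Of all 32754 genes, 3663 and 2497 had such a p with the block in these contrasts, against 3345 and 1990 without it. Libraries of the same mouse deviated together with a mean correlation of 0.0652 over 34 pairs, against -0.00502 between mice. Leaving out mice 14 and 15 of the angII heart LEC group was chosen after seeing the data. A surrogate variable, planned as a further covariate, was not run. Depth could not be read from TPM, so low values of Apela, Adm2, Ramp1 and, in diaphragm LEC, Apln have no counting error.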
